A study of Mus musculus with 32 samples.

Results

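Expression of 27 genes of inhibitory signalling was described in the hippocampus of 32 mice. The genes were taken by name from the 54532 genes of the deposited count and FPKM tables. They encode 4 alpha subunits and 5 beta, gamma and delta subunits of the GABA-A receptor, 2 subunits of the GABA-B receptor, 2 proteins of the inhibitory postsynapse, 3 proteins that make GABA or load it into vesicles, and 11 proteins and transcription factors that mark inhibitory interneurons. All 27 were among the 16723 genes left by a filter on low counts. FPKM is the number of fragments relative to the length of a gene and to the fragments of its library, so that levels of different genes can be set side by side.

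RNA was sequenced from hippocampal tissue of mice aged 12 months, and each of the 4 groups held 8 mice, of which 4 were female and 4 male. 5xFAD/D-45113 mice carried the 5xFAD transgenes and were injected repeatedly into the peritoneum with D-45113 over the last weeks before the tissue was taken. 5xFAD/Veh mice carried the same transgenes and received the unconjugated hydroxyl dendrimer. WT/D-45113 and WT/Veh mice carried no transgene and were given D-45113 or that dendrimer. In D-45113 a hydroxyl dendrimer carries a drug that blocks the tyrosine kinase CSF1R, whose signalling keeps microglia alive. The 5xFAD transgenes include human APP with the Swedish, Florida and London mutations, and Thy1 regulatory sequences drive them in neurons. All groups therefore received a dendrimer, and no group was left without injections.

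GABA is the main inhibitory transmitter of the adult forebrain. It is made from glutamate by the decarboxylases encoded by Gad1 and Gad2, loaded into vesicles by the transporter encoded by Slc32a1, and acts on GABA-A receptors, which are pentameric chloride channels, and on GABA-B receptors, which couple to G proteins. In the hippocampus a small and diverse class of interneurons releases it onto pyramidal and granule cells, which carry synaptic receptors with gamma subunits and extrasynaptic receptors that often hold the alpha5 or delta subunit. In these bulk samples, fewer cells of a type and less RNA per cell cannot be told apart.

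Totals of 10707410 to 30368498 counts were read per mouse (median 18092669). Of the 16 5xFAD mice, 14 had more Thy1 than any WT mouse, and 1M and 4F of 5xFAD/D-45113 did not. Without these 2 mice 0 of the 27 genes were called in any comparison of groups. The share of all genes called in that fit is not given here, so this count cannot be set against it. The microglial gene Cst7 was at 14.4 CPM or more in all 16 5xFAD mice and did not exceed 0.958 CPM in the WT mice. Markers of hippocampal principal cells were read in every group (16 of 16 genes tested, 0 of them at 0), and so were markers of neighbouring regions. A score per mouse was set up for each list as the mean log2 CPM of its genes relative to the 32 mice. The thalamus and habenula score (17 of 17 genes tested, 0 of them at 0 in any group) was 0.76 ± 0.98 in 5xFAD/D-45113, -0.81 ± 0.53 in 5xFAD/Veh, 0.01 ± 0.97 in WT/D-45113 and 0.04 ± 1.10 in WT/Veh mice (SD, n = 8 each). The striatum and septum score (12 of 12 genes tested, 0 of them at 0) was -0.82 ± 1.28 in 5xFAD/D-45113, 0.15 ± 0.66 in 5xFAD/Veh, -0.05 ± 0.75 in WT/D-45113 and 0.72 ± 0.48 in WT/Veh mice. These scores touch several of the genes described here, and their values stand beside those results.

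All 27 genes were detected in every mouse. The GABA-B subunit gene Gabbr1 (chromosome 17, 37045966 to 37075067 of mm10) had the highest level, at 85.8 to 180.5 FPKM over the 32 mice. By the WT/Veh median it was followed by Slc32a1, Nlgn2, Gad2 and Gad1. The means of Gad2 and Gad1 were 54.8 ± 19.3 and 55.9 ± 15.5 FPKM (SD, n = 8) in the same mice, and their difference was not tested. The lowest levels were those of transcription factor genes. Maf was at 1.59 to 4.24 FPKM, Dlx1 at 1.08 to 5.78 FPKM, Npas1 at 1.64 to 5.65 FPKM and Lhx6 at 0.887 to 4.49 FPKM. How much a gene varied between mice differed widely. The highest value was 21.0 times the lowest for Calb2, 8.85 times for Gabra5, 7.43 times for Pvalb and 6.22 times for Slc32a1, but 2.10 times for Gabbr1 and 2.31 times for Gphn.

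In 5xFAD mice, D-45113 was compared with vehicle to ask whether the treatment that targets microglia moves genes of inhibitory neurons and synapses. In edgeR's quasi-likelihood test, 0 of the 27 genes passed an adjusted p under 0.05, where 3.96% of all genes tested did. At an unadjusted p under 0.05 there were 7 of 27 genes (25.9%), against 19.9% of all genes. DESeq2 called 2 of the 27 (Gabra2, adjusted p = 0.0428, and Gabrg1, adjusted p = 0.039), 7.41% of them, against 6.73% of all genes, and limma voom and limma on the FPKM values called 0. In the same comparison 17 of 17 thalamus and habenula markers and 14 of 14 choroid plexus markers had positive log2 fold changes, and 1 of 14 markers of excitatory neurons did. The median log2 fold change of the 27 was -0.05, against 0.01 over all genes, and 17 of them were negative (63.0%, against 48.8% of all genes). In no gene were the 2 groups of 8 mice free of overlap, against 0.46% of all genes.

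**Figure D1:**
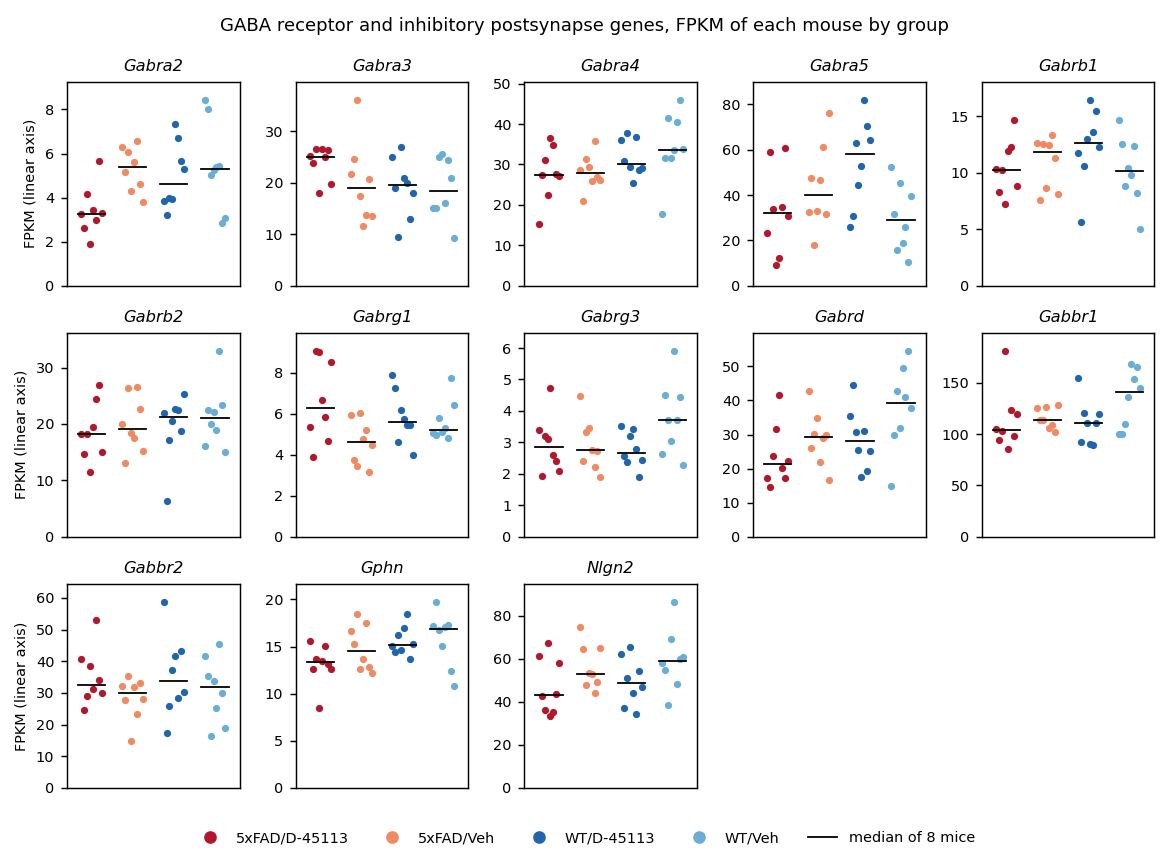
FPKM (linear axes from 0) of the 13 GABA receptor and inhibitory postsynapse genes in each of 32 mice, with a point per mouse, a bar at the median of 8 mice, and the groups in the order 5xFAD/D-45113, 5xFAD/Veh, WT/D-45113 and WT/Veh. The medians of Gabra2 were 3.26 in 5xFAD/D-45113 and 5.39 in 5xFAD/Veh mice, and the points of all groups overlap in every panel.

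Among the alpha subunits, Gabra2 was the gene nearest to a call. The alpha2 subunit is concentrated at synapses on the axon initial segment of pyramidal cells, and its gene lies on chromosome 5, 70957597 to 71095849. Gabra2 was at 1.89 to 5.64 FPKM (median 3.26) in 5xFAD/D-45113 and at 3.81 to 6.56 (median 5.39) in 5xFAD/Veh mice. Of the 5xFAD/D-45113 mice, 6 lay below every 5xFAD/Veh mouse, and only mice 3M and 3F, at 5.64 and 4.17 FPKM, overlapped with them (log2 fold change -0.64, SE 0.209, 95% interval -1.06 to -0.21, edgeR adjusted p = 0.0757). It was called in a fit of these 2 groups alone (edgeR adjusted p = 0.0495), and without mouse 3M (log2 fold change -0.79, edgeR adjusted p = 0.0195). Gabra2 was called in 4 of 49 alternative fits, and its log2 fold change had the same sign in all 49. With 1 mouse left out, 354 to 1089 of all genes were called in this comparison, against 662 with all mice. Gabra3 (chromosome X, 72432681 to 72656848) encodes a subunit found mainly in cortex and thalamic reticular nucleus, and was at 18.1 to 26.6 FPKM (median 25.1) in 5xFAD/D-45113 and 11.5 to 36.0 (median 19.1) in 5xFAD/Veh (log2 fold change 0.27, SE 0.21, 95% interval -0.16 to 0.69, edgeR adjusted p = 0.523). Gabra4 (chromosome 5, 71569749 to 71658308), whose product joins the delta subunit in extrasynaptic receptors of granule cells and thalamus, was at 15.3 to 36.7 FPKM (median 27.5) in 5xFAD/D-45113 and 21.1 to 35.8 (median 27.8) in 5xFAD/Veh, a log2 fold change of -0.02 (SE 0.151, edgeR adjusted p = 0.966). Its 95% interval, -0.33 to 0.29, lay within a change of 1.5 times in either direction, as did those of 9 other genes of the 27. Gabra5, the subunit of tonic inhibition in hippocampal pyramidal cells (chromosome 7, 57407672 to 57510059), was at 9.24 to 61.0 FPKM (median 32.3) in 5xFAD/D-45113 and 18.1 to 76.3 (median 39.9) in 5xFAD/Veh. The lowest value of all 32 mice was in 5xFAD/D-45113 mouse 4F, and the interval of the difference was wide (log2 fold change -0.39, SE 0.353, 95% interval -1.12 to 0.33, edgeR adjusted p = 0.588).

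Of the other GABA-A subunits, Gabrg1 had the largest positive log2 fold change. It encodes a gamma subunit of limited distribution in the brain (chromosome 5, 70751047 to 70842617). Gabrg1 was at 3.88 to 9.05 FPKM (median 6.27) in 5xFAD/D-45113 and 3.16 to 6.06 (median 4.62) in 5xFAD/Veh mice. Of the 5xFAD/D-45113 mice, 4 lay above every 5xFAD/Veh mouse, namely 3F, 4F, 4M and 1M at 9.05, 9.04, 8.52 and 6.68 FPKM (log2 fold change 0.53, SE 0.167, 95% interval 0.19 to 0.87, edgeR adjusted p = 0.0639). It was called without 5xFAD/D-45113 mouse 2F or 3M (edgeR adjusted p = 0.0259 and 0.0379). Gabrg1 was called in 4 of 49 alternative fits, and its log2 fold change had the same sign in all 49. The thalamus and habenula scores of the 4 high mice were 1.03, 1.92, 0.68 and 0.89. With that score as a covariate the log2 fold change of Gabrg1 was 0.29 (edgeR adjusted p = 0.73) and that of Gabra2 was -0.38 (edgeR adjusted p = 0.7), and in that fit 2 of all genes were called (0.012%). With the striatum and septum score in its place, 3 of the 27 genes were called, against 6.22% of all genes. They were Gabrg1 (0.71, edgeR adjusted p = 0.008), Gabra2 (-0.77, edgeR adjusted p = 0.0402) and Gabra5 (-1.08, edgeR adjusted p = 0.0219). The beta subunit genes Gabrb1 (chromosome 5, 71658113 to 72149037) and Gabrb2 (chromosome 11, 42419757 to 42629028), whose products form the GABA site together with alpha subunits, had log2 fold changes of -0.05 (SE 0.186) and -0.11 (SE 0.201). The values of Gabrg3, the gene of another gamma subunit (chromosome 7, 56716465 to 57387188), were 1.93 to 4.73 FPKM (median 2.85) in 5xFAD/D-45113 and 1.91 to 4.48 (median 2.74) in 5xFAD/Veh (log2 fold change 0.01, SE 0.185). The delta subunit gene Gabrd (chromosome 4, 155384980 to 155398112) was at 14.7 to 41.5 FPKM (median 21.3) in 5xFAD/D-45113 and 16.6 to 42.8 (median 29.4) in 5xFAD/Veh (log2 fold change -0.30, SE 0.223).

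The GABA-B receptor is an obligate dimer of the products of Gabbr1, which binds GABA, and Gabbr2 (chromosome 4, 46662305 to 46991873), which couples to the G protein. Gabbr1 was at 85.8 to 180.5 FPKM (median 104) in 5xFAD/D-45113 and 102 to 128 (median 114) in 5xFAD/Veh, with a log2 fold change of -0.02 (SE 0.137, edgeR adjusted p = 0.954). Mouse 4F of 5xFAD/D-45113 stood apart at 180.5. Gabbr2 was at 24.6 to 53.2 FPKM (median 32.5) in 5xFAD/D-45113 and 14.7 to 35.4 (median 30.0) in 5xFAD/Veh, with a log2 fold change of 0.32 (SE 0.212, edgeR adjusted p = 0.439). Gphn (chromosome 12, 78226379 to 78684772), the gene of the receptor scaffold gephyrin, was at 8.52 to 15.6 FPKM (median 13.3) in 5xFAD/D-45113 and 12.1 to 18.4 (median 14.5) in 5xFAD/Veh mice. Its log2 fold change, which had the smallest SE of the 27 genes, was -0.18 (SE 0.118, edgeR adjusted p = 0.409). Nlgn2 (chromosome 11, 69823122 to 69837784), a neuroligin of inhibitory synapses, was at 33.5 to 67.6 FPKM (median 43.2) in 5xFAD/D-45113 and 44.2 to 74.7 (median 53.0) in 5xFAD/Veh (log2 fold change -0.25, SE 0.16).

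The 3 genes of GABA synthesis and loading had negative log2 fold changes whose intervals included 0. Gad1 (chromosome 2, 70553072 to 70602014) was at 28.0 to 64.4 FPKM (median 40.4) in 5xFAD/D-45113 and 28.1 to 69.3 (median 49.9) in 5xFAD/Veh. Gad2 (chromosome 2, 22622205 to 22693874) was at 21.5 to 73.5 FPKM (median 41.3) in 5xFAD/D-45113 and 18.9 to 87.4 (median 43.1) in 5xFAD/Veh, and Slc32a1 (chromosome 2, 158610767 to 158615748) at 21.5 to 63.7 FPKM (median 49.4) in 5xFAD/D-45113 and 30.0 to 81.9 (median 54.7) in 5xFAD/Veh. The log2 fold changes were -0.21 for Gad1 (95% interval -0.57 to 0.15), -0.18 for Gad2 (-0.67 to 0.32) and -0.36 for Slc32a1 (-0.89 to 0.17). In 5xFAD/D-45113 mice 2F, 2M and 3M the striatum and septum scores were -2.81, -2.20 and -1.93, the lowest of all 32, and Slc32a1 was at 22.4, 21.5 and 30.2.

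**Figure D2:**
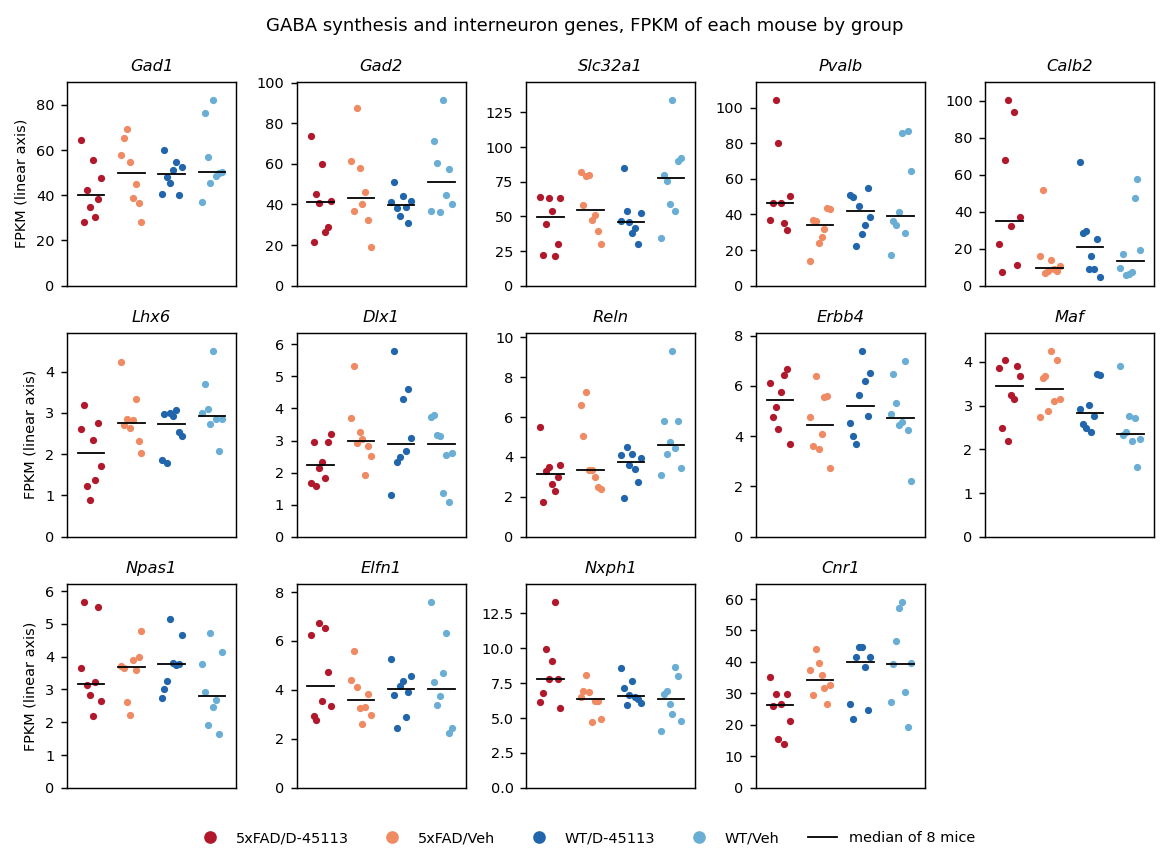
FPKM (linear axes from 0) of the 14 genes of GABA synthesis and of interneurons in each of 32 mice, with a point per mouse, a bar at the median of 8 mice, and the groups in the order 5xFAD/D-45113, 5xFAD/Veh, WT/D-45113 and WT/Veh. Calb2 reaches 100.2 in 5xFAD/D-45113 and 51.5 in 5xFAD/Veh mice, where 7 of 8 lie at 16.2 or below.

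Among the 11 interneuron genes, 5 had an unadjusted p under 0.05, in opposite directions. Calb2 (chromosome 8, 110137502 to 110168210) encodes calretinin, a calcium-binding protein of interneurons that target other interneurons, and it is also made by mouse mossy cells and by neurons of the thalamus. Calb2 was at 7.52 to 100.2 FPKM (median 34.8) in 5xFAD/D-45113 and 7.10 to 51.5 (median 9.65) in 5xFAD/Veh mice (log2 fold change 1.59, SE 0.606, 95% interval 0.35 to 2.82, edgeR adjusted p = 0.132). Over the 32 mice its highest value was 21.0 times its lowest, the largest such ratio of the 27 genes. Without 5xFAD/Veh mouse 2F, which had 51.5, Calb2 was called (log2 fold change 2.17, edgeR adjusted p = 0.0454). With the thalamus and habenula score as a covariate its sign turned, to -0.53 (edgeR adjusted p = 0.85). Without the 6 libraries with a score above 1, 3 of them from 5xFAD/D-45113, it was 0.51 (edgeR adjusted p = 0.752).

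Pvalb (chromosome 15, 78191114 to 78206400), which encodes parvalbumin of fast-spiking basket and chandelier cells, was at 31.1 to 104 FPKM (median 46.5) in 5xFAD/D-45113 and 14.0 to 43.8 (median 34.0) in 5xFAD/Veh, with 5 of 8 5xFAD/D-45113 mice above every 5xFAD/Veh mouse (log2 fold change 0.74, SE 0.286, 95% interval 0.16 to 1.32, edgeR adjusted p = 0.133). Nxph1 (chromosome 6, 8948431 to 9249032), the gene of the secreted neurexin ligand neurexophilin, was at 5.71 to 13.3 FPKM (median 7.80) in 5xFAD/D-45113 and 4.75 to 8.05 (median 6.37) in 5xFAD/Veh (log2 fold change 0.40, SE 0.153, 95% interval 0.09 to 0.71, edgeR adjusted p = 0.13). Lhx6 (chromosome 2, 36081953 to 36105408), a LIM homeodomain factor of interneurons born in the medial ganglionic eminence, was at 0.887 to 3.19 FPKM (median 2.03) in 5xFAD/D-45113 and 2.02 to 4.22 (median 2.76) in 5xFAD/Veh (log2 fold change -0.49, SE 0.199, 95% interval -0.90 to -0.09, edgeR adjusted p = 0.15). The values of Lhx6 in 5xFAD/D-45113 mice 4F and 3F, 0.887 and 1.23, were the lowest of the 32. Cnr1 (chromosome 4, 33924593 to 33948831) encodes the cannabinoid receptor on terminals of cholecystokinin interneurons and was at 14.0 to 35.2 FPKM (median 26.3) in 5xFAD/D-45113 and 26.8 to 44.0 (median 34.3) in 5xFAD/Veh mice (log2 fold change -0.49, SE 0.199, 95% interval -0.89 to -0.08, edgeR adjusted p = 0.155). With the thalamus and habenula score as a covariate, the log2 fold changes were 0.31 (edgeR adjusted p = 0.867) for Pvalb, 0.07 (edgeR adjusted p = 0.955) for Nxph1, -0.16 (edgeR adjusted p = 0.9) for Lhx6 and -0.05 (edgeR adjusted p = 0.97) for Cnr1. Fitted in 1 sex at a time, Pvalb had 1.27 in females and 0.15 in males, and Nxph1 had 0.11 in females and 0.69 in males, and the differences between the sexes were not tested.

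The other 6 interneuron genes had unadjusted p-values above 0.05. Dlx1 (chromosome 2, 71528113 to 71533981), a homeodomain factor that specifies forebrain inhibitory neurons, was at 1.59 to 3.21 FPKM (median 2.23) in 5xFAD/D-45113 and 1.91 to 5.33 (median 2.98) in 5xFAD/Veh (log2 fold change -0.45, SE 0.255). Reln (chromosome 5, 21884454 to 22344702), which encodes the secreted glycoprotein reelin, was at 1.72 to 5.53 FPKM (median 3.16) in 5xFAD/D-45113 and 2.40 to 7.28 (median 3.34) in 5xFAD/Veh (log2 fold change -0.38, SE 0.24). For the neuregulin receptor gene Erbb4 (chromosome 1, 68032186 to 69108059) the log2 fold change was 0.24 (SE 0.185), and for Elfn1 (chromosome 5, 139907943 to 139974722), a postsynaptic adhesion gene of somatostatin interneurons, it was 0.29 (SE 0.224). Maf (chromosome 8, 115682942 to 115707794), a factor of interneurons from the medial ganglionic eminence that macrophages also use, and Npas1 (chromosome 7, 16455721 to 16477728), a helix-loop-helix factor, had log2 fold changes of -0.05 (SE 0.145) and 0.03 (SE 0.207).

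**Figure D3:**
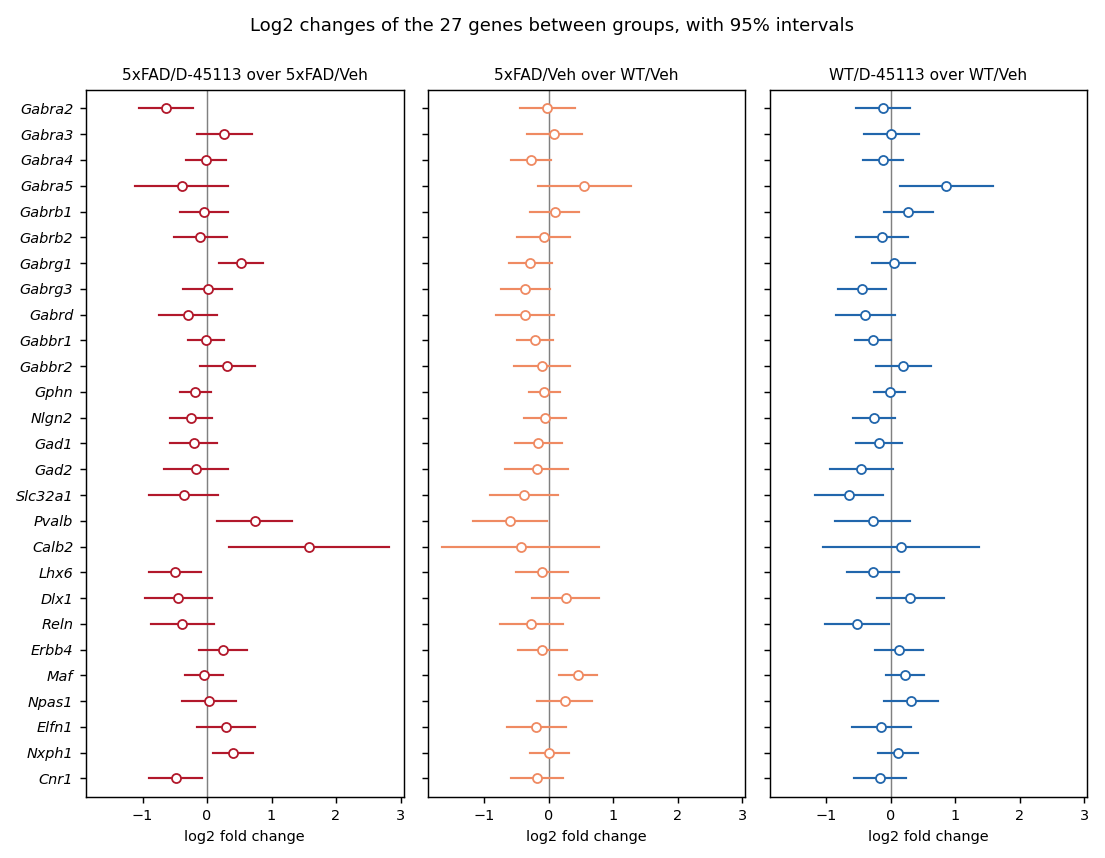
Log2 fold changes (x axis, shared scale) of the 27 genes (y axis) in edgeR's model of 4 groups of 8 mice, for 5xFAD/D-45113 over 5xFAD/Veh, 5xFAD/Veh over WT/Veh and WT/D-45113 over WT/Veh. Lines are 95% intervals and circles are open because 0 genes passed an adjusted p under 0.05. Calb2 has the widest intervals and Gphn among the narrowest.

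Set against WT/Veh, the 5xFAD/Veh mice show which of these genes differ in the amyloid model without the drug. This comparison shares the 5xFAD/Veh mice with the previous one, in the opposite position, so the signs are not independent, and the later comparisons share groups in the same way. Again 0 of 27 genes passed an adjusted p under 0.05, where 3.86% of all genes did. DESeq2, limma voom and limma on the FPKM values also called 0. At an unadjusted p under 0.05 there were 2 of 27 (7.41%), below the 11.1% of all genes. Of the 27, 20 had a negative log2 fold change (74.1%, against 53% of all genes), with a median of -0.11, against -0.02 over all genes. In the same comparison 0 of 17 thalamus and habenula markers (median -0.99), 0 of 14 choroid plexus markers (median -1.65) and 1 of 12 striatum and septum markers (median -0.64) had positive log2 fold changes, and their part in these values was not tested. In 0 of 27 genes were the groups free of overlap, against 2.24% of all genes. Maf came nearest to a call. It was at 2.74 to 4.24 FPKM (median 3.39) in 5xFAD/Veh and 1.59 to 3.91 (median 2.36) in WT/Veh (log2 fold change 0.46, SE 0.146, 95% interval 0.16 to 0.75, edgeR adjusted p = 0.0803). Of the WT/Veh mice, 6 lay below every 5xFAD/Veh mouse, whereas mouse 1F had 3.91 FPKM and the other 7 at most 2.76. Maf was called without that mouse (log2 fold change 0.58, edgeR adjusted p = 0.00689) and in males alone (log2 fold change 0.74, edgeR adjusted p = 0.0329), whereas in females alone it had 0.17 (edgeR adjusted p = 0.916). The microglia score was 1.14 ± 0.21 in 5xFAD/Veh and -0.84 ± 0.16 in WT/Veh mice (SD, n = 8 each), and its part in the difference of Maf was not tested.

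Pvalb was at 14.0 to 43.8 FPKM (median 34.0) in 5xFAD/Veh and 17.5 to 86.7 (median 38.8) in WT/Veh (log2 fold change -0.60, SE 0.285, 95% interval -1.18 to -0.02, edgeR adjusted p = 0.415). WT/Veh mice 3M and 1M had 86.7 and 85.5. The log2 fold change of Pvalb was -0.37 with the thalamus and habenula score as a covariate (edgeR adjusted p = 0.835), -0.23 in females alone and -0.85 in males alone. Reln, at 2.40 to 7.28 FPKM (median 3.34) in 5xFAD/Veh and 3.10 to 9.30 (median 4.61) in WT/Veh, was called in males alone (log2 fold change -1.02, edgeR adjusted p = 0.0256), had 0.30 in females alone (edgeR adjusted p = 0.885) and had -0.27 (SE 0.24, edgeR adjusted p = 0.784) in all mice. The log2 fold changes of the 11 receptor genes ran from -0.37 for Gabrd to 0.55 for Gabra5. Gabra5 was at 18.1 to 76.3 FPKM (median 39.9) in 5xFAD/Veh and 10.6 to 52.2 (median 28.8) in WT/Veh (log2 fold change 0.55, SE 0.354, 95% interval -0.17 to 1.27, edgeR adjusted p = 0.641). The postsynaptic genes Gphn and Nlgn2 had -0.07 (SE 0.118) and -0.06 (SE 0.16). Gad1, Gad2 and Slc32a1 had -0.16 (SE 0.177), -0.19 (SE 0.243) and -0.39 (SE 0.26).

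In WT mice, the comparison of D-45113 with vehicle asks what D-45113 does to these genes in mice without the transgenes. Of the 27 genes, 0 passed an adjusted p under 0.05, as did 0.0239% of all genes. DESeq2, limma voom and limma on the FPKM values called 0 as well. At an unadjusted p under 0.05 there were 5 of 27 (18.5%), against 6.81% of all genes, and in 0 of 27 were the groups free of overlap (0.0299% of all genes). Slc32a1 was at 30.0 to 84.9 FPKM (median 46.2) in WT/D-45113 and 34.1 to 134 (median 77.6) in WT/Veh (log2 fold change -0.65, SE 0.261, 95% interval -1.18 to -0.12, edgeR adjusted p = 0.641). The highest of all 32 mice was WT/Veh mouse 1M at 134. Gabra5 was at 25.9 to 81.8 FPKM (median 58.0) in WT/D-45113 and 10.6 to 52.2 (median 28.8) in WT/Veh mice, and 5 of 8 WT/D-45113 mice lay above every WT/Veh mouse (log2 fold change 0.86, SE 0.355, 95% interval 0.14 to 1.59, edgeR adjusted p = 0.648). Gabrg3, its neighbour on chromosome 7, had the opposite sign, at 1.89 to 3.52 FPKM (median 2.68) in WT/D-45113 and 2.28 to 5.89 (median 3.71) in WT/Veh (log2 fold change -0.44, SE 0.185, 95% interval -0.82 to -0.07, edgeR adjusted p = 0.648). Reln was at 1.93 to 4.49 FPKM (median 3.76) in WT/D-45113 and 3.10 to 9.30 (median 4.61) in WT/Veh (log2 fold change -0.52, SE 0.241, 95% interval -1.01 to -0.03, edgeR adjusted p = 0.69) and Gabbr1 at 89.4 to 154 FPKM (median 111) in WT/D-45113 and 99.6 to 169 (median 140.5) in WT/Veh (log2 fold change -0.28, SE 0.138, 95% interval -0.56 to -0.00, edgeR adjusted p = 0.73). Several of these values were larger in males alone than in females alone, a difference that was not tested. Slc32a1 had -0.11 in females and -1.19 in males, Gabra5 0.17 in females and 1.50 in males, and Gabbr1, whose sign turned, 0.09 in females (edgeR adjusted p = 0.964) and -0.63 in males.

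The means of the striatum and septum and of the hippocampal principal cell score in these groups lay apart in opposite directions. The striatal score was -0.05 ± 0.75 in WT/D-45113 and 0.72 ± 0.48 in WT/Veh mice, and the hippocampal score was 0.44 ± 0.56 in WT/D-45113 and -0.24 ± 0.69 in WT/Veh (SD, n = 8 each). With the striatum and septum score as a covariate, 0 of the 27 genes had an unadjusted p under 0.05, against 3.52% of all genes. In that fit the log2 fold changes were -0.19 (edgeR adjusted p = 1) for Slc32a1, 0.47 (edgeR adjusted p = 1) for Gabra5 and -0.19 (edgeR adjusted p = 1) for Gabrg3.

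Between 5xFAD/D-45113 and WT/D-45113 mice, 0 of 27 genes passed an adjusted p under 0.05 (5.06% of all genes), and 2 had an unadjusted p under 0.05 (7.41%, against 18.3% of all genes). In 0 of 27 were the groups free of overlap (1.02% of all genes). DESeq2, limma voom and limma on the FPKM values called 0. Gabra2 was at 1.89 to 5.64 FPKM (median 3.26) in 5xFAD/D-45113 and 3.19 to 7.33 (median 4.62) in WT/D-45113 mice (log2 fold change -0.54, SE 0.21, 95% interval -0.97 to -0.11, edgeR adjusted p = 0.143), and it was called without 5xFAD/D-45113 mouse 3M (log2 fold change -0.70, edgeR adjusted p = 0.0349). Cnr1 was at 14.0 to 35.2 FPKM (median 26.3) in 5xFAD/D-45113 and 21.8 to 44.8 (median 39.9) in WT/D-45113 (log2 fold change -0.51, SE 0.199, 95% interval -0.91 to -0.10, edgeR adjusted p = 0.146). With the striatum and septum score as a covariate, Gabra5 was called (log2 fold change -1.32, edgeR adjusted p = 0.0031), as were 7.49% of all genes. The difference of the drug's effect between genotypes was tested as an interaction, defined as the change with D-45113 in 5xFAD mice minus that in WT mice. Here 0 of 27 genes and 0% of all genes passed an adjusted p under 0.05, and 4 genes (14.8%, against 9.51% of all genes) had an unadjusted p under 0.05. DESeq2, limma voom and limma on the FPKM values called 0 of the 27. These 4 were Pvalb (1.02, SE 0.403), Gabra5 (-1.26, SE 0.501), Dlx1 (-0.75, SE 0.36) and Gabrg1 (0.48, SE 0.236), each a log2 difference, with edgeR adjusted p-values of at least 0.412. With the thalamus and habenula score as a covariate they were 0.58, -0.68, -0.44 and 0.25. In the interaction 17 of 17 thalamus and habenula markers and 14 of 14 choroid plexus markers were positive. The log2 fold change of Pvalb with D-45113 was 0.74 in 5xFAD and -0.28 in WT mice, and that of Gabra5 was -0.39 in 5xFAD and 0.86 in WT mice. Neither difference held after adjustment over all genes.

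Sex was tested with the 4 groups in the model, and 0 of 27 genes passed an adjusted p under 0.05 (0.0478% of all genes). DESeq2, limma voom and limma on the FPKM values called 0. Gabrb2 alone had an unadjusted p under 0.05 (3.70% of the 27, against 4.14% of all genes), with a log2 change of females over males of -0.29 (SE 0.136, edgeR adjusted p = 1). In 24 of the 27 genes the 95% interval lay within a change of 1.5 times in either direction.

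The levels of several genes followed the marker scores of brain regions across mice within groups. Each score was added by itself to the model of 4 groups, a test chosen after the values were seen. The coefficient is the log2 change of a gene per unit of score, over 32 mice, and the score and the gene come from the same library. For the thalamus and habenula score, 3 of 27 genes were called, against 2.81% of all genes. Calb2 rose with it by 0.99 per unit (SE 0.163, edgeR adjusted p = 0.000243). The 6 mice with a score above 1 had 47.2 to 100.2 FPKM of Calb2, and of the other 26 mice all but 5xFAD/Veh mouse 2F had at most 37.2 FPKM. Nxph1 rose by 0.19 per unit (SE 0.0523, edgeR adjusted p = 0.0403), and with each of the 32 mice left out in turn that call was lost for 11 of them (adjusted p up to 0.193). The coefficient of Cnr1 was -0.30 per unit (SE 0.0667, edgeR adjusted p = 0.00603). In mice 2M and 4F of 5xFAD/D-45113, which had the highest scores of their group, Cnr1 was at 14.0 and 15.4 FPKM, the lowest of the 32.

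For the striatum and septum score, 7 of 27 genes were called, against 4.26% of all genes. All 3 genes of GABA synthesis and loading rose with it. Slc32a1 rose by 0.58 per unit (SE 0.0622, edgeR adjusted p = 2.86e-08), Gad2 by 0.47 and Gad1 by 0.30. The receptor genes Gabrd and Gabrg3 rose by 0.41 and 0.30, whereas Gabra5 and Npas1 had coefficients of -0.60 and -0.32. Most striatal neurons are GABAergic projection neurons, whereas interneurons are a minority in the hippocampus. What part either tissue had in these coefficients was not tested. For the hippocampal principal cell score the same 7 genes were called, against 5.94% of all genes, each with the opposite sign. Within groups, mice with a high hippocampal principal cell score tended to have a low striatum and septum score. The calls for these scores are therefore not independent, and their separate parts were not tested. Per unit of the hippocampal principal cell score, Gabra5 rose by 0.96 (SE 0.112, edgeR adjusted p = 4.43e-07) and Npas1 by 0.47. The coefficients of Slc32a1, Gad2, Gabrd, Gabrg3 and Gad1 were -0.55, -0.51, -0.49, -0.38 and -0.31. The call of Gad1 was lost in 6 of 38 alternative fits. These were the fits with sex in the model (edgeR adjusted p = 0.0539) and with the number of the mouse as a block (edgeR adjusted p = 0.157). The others left out 1 mouse, where the call was lost for 4 of 32 mice (edgeR adjusted p up to 0.0924). For the choroid plexus score 0 of 27 genes were called by edgeR (2.28% of all genes) and 0 by limma voom, with 2 at an unadjusted p under 0.05 (Nlgn2 and Reln, 7.41% of the 27, against 11.6% of all genes).

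**Figure D4:**
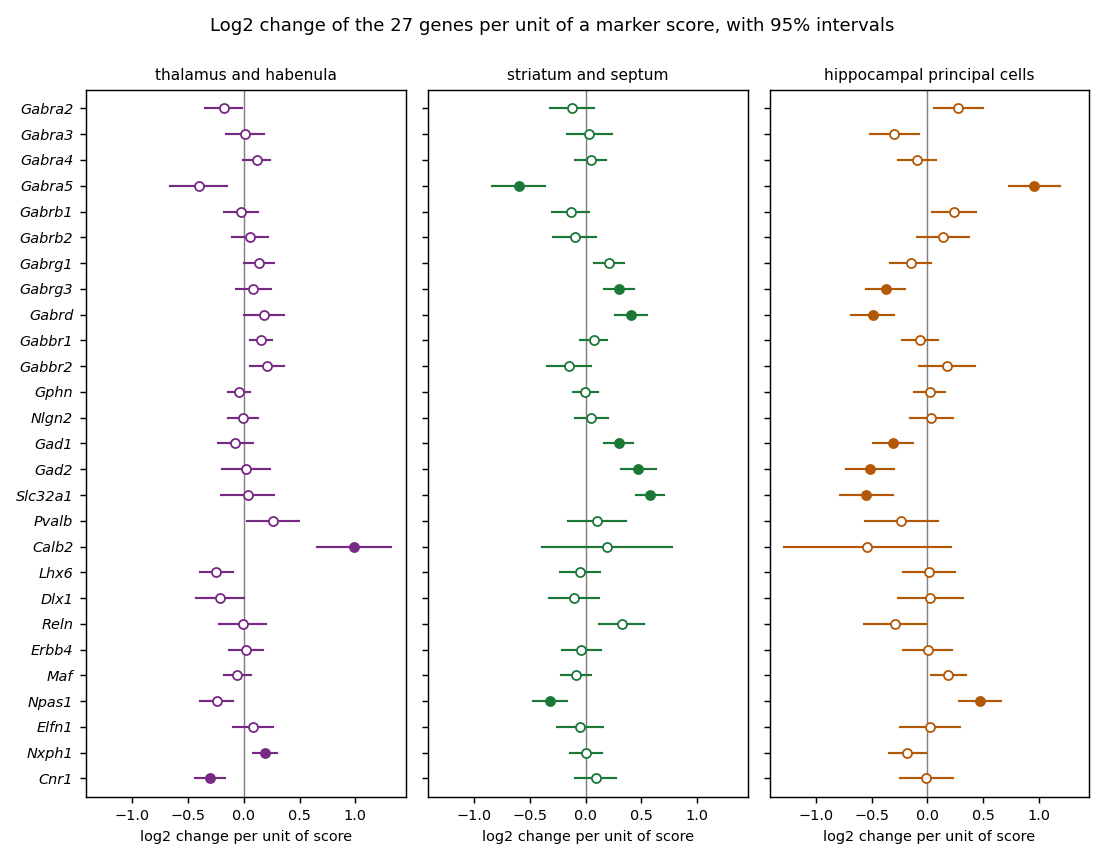
Log2 change of each of the 27 genes (y axis) per unit of the thalamus and habenula, the striatum and septum and the hippocampal principal cell score (x axis, shared scale), each score alone in the model of 4 groups. Lines are 95% intervals, and filled circles mark adjusted p under 0.05 (3, 7 and 7 genes). Gabra5 has -0.60 for the striatum and septum and 0.96 for the hippocampal principal cell score.

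Pairs of genes were then compared across mice, after removing the group means of log2 CPM, in 6 relations. Gad1 and Gad2 had r = 0.87 and rho = 0.85 over 32 mice (permutation within groups, p = 1e-05 for each, the smallest that 100000 permutations can give). Within single groups r was 0.75 to 0.93, and without the 2 farthest mice it was 0.83. Slc32a1 had r = 0.79 with Gad1 (rho = 0.76) and r = 0.81 with Gad2 (rho = 0.79), with p = 1e-05 for r in both, and r = 0.75 and 0.80 without the 2 farthest mice. The 3 genes lie far apart on chromosome 2. WT/Veh mouse 1M had the highest level of all 3, at 82.1 FPKM for Gad1, 91.2 for Gad2 and 134 for Slc32a1. The neighbours Gabra5 and Gabrg3, 20483 bases apart on the same strand, were opposed, with r = -0.69 and rho = -0.74 (permutation p = 6e-05 and 2e-05), r = -0.75 to -0.51 within groups and r = -0.72 without the 2 farthest mice. Gabra4 and Gabrb1 lie head to head on chromosome 5 and overlap by 196 bases, and reads of that stretch cannot be told apart where counting ignores strand, which is not given in the sources used here. They had r = -0.05 and rho = -0.01 (permutation p = 0.791 and 0.964). Gabra2 and Gabrg1, neighbours in the same cluster, had r = -0.32 and rho = -0.27 (permutation p = 0.0749 and 0.144). Adjusted over the 6 relations, the p-values of r were 2e-05 for each of the 3 pairs of synthesis genes, 9e-05 for Gabra5 and Gabrg3, 0.0899 for Gabra2 and Gabrg1 and 0.791 for Gabra4 and Gabrb1. The region scores were not removed from these values. Gad1, Gad2, Slc32a1, Gabra5 and Gabrg3 each had called coefficients for the striatum and septum and the hippocampal principal cell scores. The part of these scores in the correlations was not tested.

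**Figure D5:**
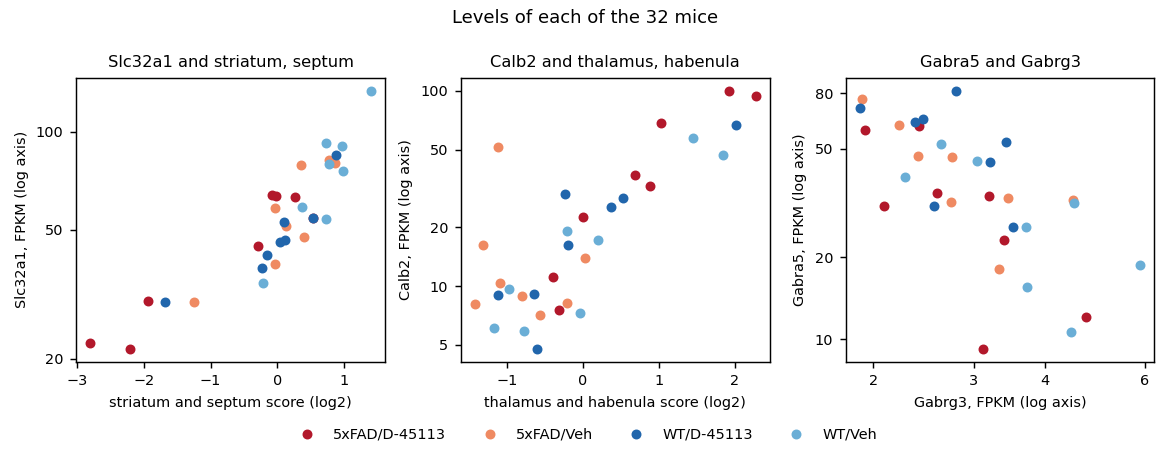
Level of Slc32a1 against the striatum and septum score, of Calb2 against the thalamus and habenula score, and of Gabra5 against Gabrg3, with a point per mouse and the 4 groups in colour (FPKM on log axes, scores in log2 units). Slc32a1 spans 21.5 to 134 FPKM and rises with its score in all groups, and Gabra5 is low where Gabrg3 is high.

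The promoters of these 5 genes are shown because the genes varied together (Gad1, Gad2 and Slc32a1) or in opposition (Gabra5 and Gabrg3). They come from RefSeq (GRCm38.p6, the assembly of mm10) and run from 250 bases before to 50 bases after the annotated start, and 24 of the 27 genes had an entry, Gabrd, Calb2 and Maf having none. Capitals mark matches, on either strand, to the TATA box (TATAAA, in 13.6% of 32851 promoters), the GC box (GGGCGG, 35.7%), the CCAAT box (CCAAT, 37.4%), the cAMP response element (TGACGTCA, 1.79%) or the homeodomain core (TAATTA, 5.29%). No match overlapped another. The windows are chr2:70561879-70562178, chr2:22622077-22622376 and chr2:158610508-158610807 on the plus strand, and chr7:57510010-57510309 and chr7:57387166-57387465 on the minus strand. The Gad1 window lies inside the span given above for that gene, 70553072 to 70602014, so its RefSeq start differs from the start of that span.
Gad1: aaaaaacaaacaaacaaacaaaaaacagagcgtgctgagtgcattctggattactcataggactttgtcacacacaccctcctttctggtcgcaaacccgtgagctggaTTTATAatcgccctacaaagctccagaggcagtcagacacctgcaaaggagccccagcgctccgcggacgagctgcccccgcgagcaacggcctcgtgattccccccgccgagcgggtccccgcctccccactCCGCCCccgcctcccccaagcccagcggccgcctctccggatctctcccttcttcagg
Gad2: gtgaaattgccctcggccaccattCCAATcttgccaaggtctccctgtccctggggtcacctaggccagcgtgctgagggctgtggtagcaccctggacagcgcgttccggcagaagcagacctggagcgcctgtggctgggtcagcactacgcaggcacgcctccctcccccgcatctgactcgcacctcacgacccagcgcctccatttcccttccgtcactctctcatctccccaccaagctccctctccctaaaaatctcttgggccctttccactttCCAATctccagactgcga
Slc32a1: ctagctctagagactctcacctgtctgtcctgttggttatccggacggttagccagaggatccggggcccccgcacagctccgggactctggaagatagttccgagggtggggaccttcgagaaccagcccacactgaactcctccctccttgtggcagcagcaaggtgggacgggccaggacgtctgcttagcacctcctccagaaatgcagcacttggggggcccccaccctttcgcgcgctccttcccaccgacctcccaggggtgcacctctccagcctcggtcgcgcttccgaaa
Gabra5: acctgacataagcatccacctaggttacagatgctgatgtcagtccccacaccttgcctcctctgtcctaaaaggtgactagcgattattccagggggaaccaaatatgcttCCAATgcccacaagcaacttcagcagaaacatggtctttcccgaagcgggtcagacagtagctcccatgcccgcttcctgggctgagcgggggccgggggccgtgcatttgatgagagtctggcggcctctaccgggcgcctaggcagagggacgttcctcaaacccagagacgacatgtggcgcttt
Gabrg3: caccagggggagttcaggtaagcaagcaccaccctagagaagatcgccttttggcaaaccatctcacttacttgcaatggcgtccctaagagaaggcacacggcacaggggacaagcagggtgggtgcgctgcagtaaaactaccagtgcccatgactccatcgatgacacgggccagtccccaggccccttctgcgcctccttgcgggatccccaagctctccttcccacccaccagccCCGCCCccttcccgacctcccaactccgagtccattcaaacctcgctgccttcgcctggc
The Gad1 window held a TATA box and a GC box on the opposite strand, Gad2 held 2 CCAAT boxes, Slc32a1 held no match, Gabra5 held a CCAAT box and Gabrg3 a GC box on the opposite strand. The 3 genes that varied together shared none of the 5 motifs in these windows, which says only that these letters are not there. Over the 24 genes with an entry, 15 had a GC box, 9 a CCAAT box, 4 a TATA box, 1 (Gabrg1) the homeodomain core and 0 the cAMP response element in at least 1 promoter. These are counts of genes, some of which may have several promoters. The shares given above are of single promoters, so they are no background for these counts. GC content was 60.0%, 61.3% and 63.3% for Gad1, Gad2 and Slc32a1, and 56.7% and 61.0% for Gabra5 and Gabrg3.

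Other genes of the pathway were read from 4 further lists. In 5xFAD/D-45113 against 5xFAD/Veh, 1 of 6 tested of the other GABA-A subunits was higher and 0 were lower, where 2.21% of all genes were called higher and 1.75% lower. This was Gabrr2, a rho subunit, at 0.896 to 4.28 FPKM (median 1.86) in 5xFAD/D-45113 and 0.0931 to 0.86 (median 0.395) in 5xFAD/Veh (log2 fold change 2.32, SE 0.472, edgeR adjusted p = 0.00619). Of 8 genes of GABA uptake, breakdown and chloride transport, 2 were higher and 0 lower. Slc6a11, which encodes a GABA transporter of astrocytes, was at 57.1 to 272 FPKM (median 142) in 5xFAD/D-45113 and 33.2 to 80.1 (median 44.5) in 5xFAD/Veh (log2 fold change 1.50, SE 0.345, edgeR adjusted p = 0.0136). Of 17 genes of receptor trafficking and anchoring, 0 were called, with 6 positive and a median log2 fold change of -0.13. Of 42 other interneuron genes, 2 were higher and 3 lower, with 13 positive and a median of -0.37. Higher were Btbd11 (log2 fold change 1.31, SE 0.297, edgeR adjusted p = 0.012), of parvalbumin cells, and Nr2f2 (log2 fold change 0.92, SE 0.259, edgeR adjusted p = 0.0377), a factor of interneurons from the caudal eminence. Lower were Dlx6os1 (log2 fold change -0.82, SE 0.167, edgeR adjusted p = 0.00619), a long RNA antisense to Dlx6 that may share reads with it, Lamp5 (log2 fold change -0.93, SE 0.238, edgeR adjusted p = 0.0232), of neurogliaform cells, and Dlx5 (log2 fold change -1.14, SE 0.295, edgeR adjusted p = 0.0239). Nr2f2 and Dlx5 were named after their values were seen. With the thalamus and habenula score as a covariate 0 of these 8 genes were called, in a fit that called 0.012% of all genes. The log2 fold changes were then 1.85 for Gabrr2, -1.09 for Dlx5, -0.76 for Lamp5 and -0.50 for Dlx6os1, against 0.61 for Slc6a11, 0.43 for Btbd11 and 0.37 for Nr2f2. Without the 6 mice above a thalamus and habenula score of 1 Gabrr2 was called (log2 fold change 2.55, edgeR adjusted p = 0.0198). With the striatum and septum score as a covariate, in a fit that called 6.22% of all genes, Lamp5 and Dlx5 were not called. Their log2 fold changes were then -0.68 (edgeR adjusted p = 0.101) and -0.66 (edgeR adjusted p = 0.0771). Gabrr2, Slc6a11, Dlx6os1, Nr2f2 and Btbd11 stayed called. Of 12 striatum and septum markers, 2 had positive log2 fold changes in this comparison (median -0.91). Without single mice Nr2f2 lost its call for 9 of 32, Dlx5 for 3 and Lamp5 for 1 (5xFAD/Veh 3F).

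In 5xFAD/Veh against WT/Veh, the lists held 2 calls among 73 genes tested, both higher, where 3.65% of all genes were called higher and 0.209% lower. Among them was Igf1, a growth factor gene of some interneurons (log2 fold change 2.08, SE 0.185, edgeR adjusted p = 2.89e-10). Microglia and macrophages express Igf1 as well, and the mean microglia score was 1.14 in 5xFAD/Veh and -0.84 in WT/Veh mice, whose part in the difference was not tested. In 5xFAD/D-45113 against WT/D-45113 Igf1 was higher too (log2 fold change 1.44), and Dlx6os1 was lower (log2 fold change -0.69, SE 0.168, edgeR adjusted p = 0.00939). In WT/D-45113 against WT/Veh, in the interaction and between the sexes, edgeR called 0 genes of these lists.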

How the data were processed

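Hippocampal RNA of 32 mice was sequenced and mapped for the authors by a company, to the mouse build mm10 per the labels. Which aligner, counting tool, annotation and strand setting were used is not given in the sources used here. Tables of 54532 genes were deposited by the authors, one with unnormalised counts and one with FPKM values. The 32 columns of each table were matched to mice by the library names in the labels, and groups were taken from the labels of genotype and treatment.

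Genes with too few counts were removed by filterByExpr, which left 16723. Counts were normalised by TMM and fitted by edgeR 4.0.16 (R 4.3.3, quasi-likelihood, robust) in 1 model of 4 groups, with Benjamini-Hochberg adjustment over all genes tested and a threshold of 0.05. The SE is the log2 change divided by the square root of F, and 95% intervals use the total degrees of freedom of that test. Sex was tested as a further term. Marker scores used log2 CPM with a prior count of 2. Alternatives used DESeq2 1.42.0, limma 3.58.1 (voom, or log2(FPKM + 1) and log2(FPKM + 0.1)), other filters and covariates, 1 sex, and each mouse left out in turn. The fits were also run on simulated counts, drawn for each gene separately, and the outcome is not given here. Figures were drawn with matplotlib 3.10.9.

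The 27 genes and all gene lists were chosen with earlier results of these data known. Of the further lists, the 3 genes with the smallest p in each list and comparison were to be named. Some genes called in these lists, and a component of the transgenes, are not reported here. The labels give a number and a sex for each mouse, so p-values measure the spread between mice. Total counts per mouse were 10707410 to 30368498, and counting error is only part of the spread given.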

Additional observations from a re-analysis of the deposited data

Results flagged for a closer look

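In 8 of 108 groups of 8 mice (27 genes in 4 groups), the FPKM of the highest or the lowest mouse lay so far from the next that the gap, as a share of the range of the group, exceeded Dixon's 95% critical value, which chance exceeds in about 1 of 20 groups. Gabbr1 was at 180.5 in 5xFAD/D-45113 mouse 4F, against 122.9 in the next mouse. In the same mouse Gphn was at 8.52, against 12.6 in the next. Calb2 was at 51.5 in 5xFAD/Veh mouse 2F, against 16.2, and at 67.0 in WT/D-45113 mouse 1F, against 29.7. Gabrb2 was at 6.40 in WT/D-45113 mouse 2F, against 17.1, and at 32.9 in WT/Veh mouse 2M, against 23.3. Slc32a1 was at 84.9 in WT/D-45113 mouse 2F, against 54.1. Reln was at 9.30 in WT/Veh mouse 1M, against 5.80.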

How the results depend on the processing

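The count of called genes among the 27 was 0 in each comparison of groups, and 0 under all alternatives in WT/D-45113 against WT/Veh, in the interaction and between the sexes. In 5xFAD/D-45113 against 5xFAD/Veh it was 2 by DESeq2, 1 with only the groups compared, 3 with the striatum and septum score as covariate and 0 to 2 with 1 mouse left out. In 5xFAD/Veh against WT/Veh it was 2 in males and 0 to 1 with 1 mouse left out. In 5xFAD/D-45113 against WT/D-45113 it was 1 with the striatum and septum score as covariate and 0 to 1 with 1 mouse left out. For the thalamus and habenula score (3 called) it was 5 with sex as a covariate and 2 to 5 with 1 mouse left out, for the striatum and septum score (7 called) 7 to 9, for the hippocampal principal cell score (7 called) 6 to 8 and for the choroid plexus score 0 to 1 (Nlgn2, without 5xFAD/D-45113 3F, 5xFAD/D-45113 4F or WT/Veh 2M). In 5xFAD/D-45113 against 5xFAD/Veh the log2 fold change of Calb2 was -0.53 with the thalamus and habenula score and -0.39 with that and the choroid plexus score as covariates, and that of Cnr1 was 0.035 with both scores. Gabbr1 was at 0.089 in females in WT/D-45113 against WT/Veh. The cause of these moves was not tested. Over all genes 662 were called in 5xFAD/D-45113 against 5xFAD/Veh, against 2 with the thalamus and habenula score as covariate, 59 without the 6 mice above 1 and 1041 with the striatum and septum score. With 1 mouse left out, 354 to 1089 of all genes were called there. The range was 583 to 676 in 5xFAD/Veh against WT/Veh and 593 to 1153 in 5xFAD/D-45113 against WT/D-45113. It was 229 to 563 for the thalamus and habenula score and 565 to 860 for the striatum and septum score. It was 802 to 1102 for the hippocampal principal cell score and 291 to 505 for the choroid plexus score.

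The labels do not say whether mice with the same number and sex across groups had more in common than that label. The mean correlation of their deviations was 0.053, with 17 of 48 pairs over 0.1. For pairs with other numbers it was -0.007, with 67 of 336 pairs over 0.1, and the difference was not tested. With the number as a replicate block, 0 of 27 genes were called in the 5 comparisons of groups, 5 for the thalamus and habenula score and 6 for the hippocampal principal cell score. The share of all genes called with this block is not given here. Nor is it given for the fits of males, of only the groups compared and with sex as a covariate. No block was fitted for female against male, where the number carries the sex. With 8 mice a group, 10 of 27 intervals in 5xFAD/D-45113 against 5xFAD/Veh lay within a change of 1.5 times, and the intervals of the other genes reached beyond it.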
